A study of Arabidopsis thaliana with 72 samples.

Results

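The genes described here were counted in Col and Ler rosette leaves and hardly at all in Ws leaves. The genes were chosen by their counts in the parents. A gene was taken when it had at least 50 counts in each of the 3 Col and 3 Ler libraries and at most 5 counts in each of the 3 Ws libraries, and 27 of 37336 genes met this rule. Since the members were selected on their levels in Col, Ler and Ws, these levels are given as a description and are not tested. The values that the rule did not use come from the hybrids and from the inbred lines.

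The series held 72 RNA-seq libraries of 24 groups, with 3 libraries per group, from rosette leaves of Arabidopsis thaliana at 25 days after sowing (DAS). In the Ws/Ler system the groups were 7 Hybrid Mimics (WL_HM1 to WL_HM7), 2 small lines (wl_sml1 and wl_sml2), the reciprocal F1 hybrids WsxLer and LerxWs, and the parents Ler (Landsberg erecta) and Ws (Wassilewskija). Ler carries the erecta mutation of a receptor kinase that shapes stem and leaf growth, and the labels name no transgene or treatment in any group. A Hybrid Mimic is an F7 line bred by repeated selfing and selection for the large rosette of the hybrid, and a small line is an F7 line bred in the same way for a small rosette. In the Col/Ler system the groups were 6 Hybrid Mimics (CL_HM1 to CL_HM6), 2 small lines (cl_sml1 and cl_sml2), the hybrids ColxLer and LerxCol, and the parent Col (Columbia), with Ler shared by both systems. F1 and parent libraries each pooled 3 plants, whereas each F7 library came from 1 plant, so the 3 libraries of a line were separate plants of that line.

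An F1 plant inherits 1 copy of each nuclear gene from each parent. Where only 1 parent has an active copy, a hybrid carries 1 active copy in place of the pair of the other parent, and its transcript level then shows the dosage of that copy. Repeated selfing makes a line homozygous at most loci, so that a line carries either the active or the inactive copy, and neighbouring genes are inherited together unless a crossover parts them. Plants of an inbred line can still differ where the line has not become homozygous. Genes that differ in this way between Arabidopsis accessions are known to be common among disease resistance genes, transposons and pseudogenes.

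The 72 libraries held between 17741358 and 28527725 counts (median 20432113). They were 18659056 to 20853103 in the Ws/Ler F1, 19941341 to 28527725 in Ler and 21960855 to 24257915 in Ws. Ler replicate 3 was the deepest of the Ler libraries and stood apart from the other Ler libraries at several members, so the dosage is also given without it. In AT3G05945, for example, it had 691 normalized counts against 227 and 296 in the other Ler libraries. No 2 replicates were alike within counting noise (chi-square divided by the number of genes 4.18 to 82.4), and each library was counted as 1 sample. The summed level of 4 leaf genes of photosynthesis (RBCS1A, RBCS3B, CAB3 and CA1) was 232938 to 1178468 normalized counts per library, whereas 4 floral regulators (AP1, AP3, PI and AG) summed to 3.3 to 216.5. The root gene CASP1 reached at most 4.8 and the seed storage genes CRA1 and CRU3 together at most 3.2. The part of the floral genes in the results was not tested.

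Of the 27 members, 8 lay on chromosome 1, 1 on chromosome 2, 9 on chromosome 3, 3 on chromosome 4 and 6 on chromosome 5. By annotation, 3 were disease resistance genes of the nucleotide-binding leucine-rich repeat class, which act as immune receptors: AT1G63350, AT1G63860 and AT5G51630. One encoded a receptor-like kinase with an S-locus lectin domain (AT1G11280), and 1 a cytochrome P450 (CYP71A24). A further 4 were pseudogenes or transposable elements, among them SADHU4-1, a member of the non-coding Sadhu retrotransposons, and 3 were non-coding RNAs. Proteins of unknown function made up 4, and 11 encoded other proteins. Among these were PAI3, an enzyme of tryptophan biosynthesis, PLC8 of the phospholipase C family, which cleaves membrane phosphoinositides, and COX19-1, named after a yeast protein needed to assemble cytochrome c oxidase.

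The rule has sharp limits, and some genes lay close to them. Just inside the lower limit of 50 counts were AT1G23935 (lowest count in Col and Ler 50), AT1G63350 (55) and AT3G24927 (65). Just outside it were AT1G28620 (49), AT3G27997 (48) and AT3G29644 (45). At the upper limit of 5 counts in Ws, the highest counts inside were 5 in PAI3 and 3 in AT1G54260 and COX19-1. Just outside were AT4G36140 and AT2G21080 with 6 counts and AT5G54190 with 9. The mirror set, with at least 50 counts in every Ws and Col library and at most 5 in every Ler library, held 43 genes.

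Genes around the members were mostly expressed in Ws. The nearest genes on either side with at least 50 counts in every Col and Ler library made up 49 genes other than members, and 48 of these had at least 50 counts in every Ws library. Their Ws level had a median of 0.923 of the Ler level, and 42 of the 49 lay between 0.5 and 2. The exception was RLP41, a receptor-like protein next to AT3G24927, with 5 to 9 counts in Ws and 0.071 of the Ler level. AT1G23950, which lies between AT1G23935 and AT1G23960 in the annotation, was at 0.146 of the Ler level in Ws.

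Mean normalized counts of the members in Ler ran from 82.1 in AT3G24927 to 1733 in AT3G18535, annotated as a tubulin-tyrosine ligase. These are counts per gene and not per length, so they do not rank the genes by transcript number. AT3G18535 had 1529 to 1842 normalized counts over the 3 Ler libraries, and AT3G47250, a transmembrane protein gene of unknown function, 1170 to 1931. Members also differed between the 2 parents that express them. The ratio of the Ler mean to the Col mean ran from 0.403 in AT3G24927 to 6.34 in AT1G23935, and it was 3.21 in AT3G18535.

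In the Ws/Ler F1, most members were present at about 0.5 of the Ler level. The ratio of the F1 mean to the Ler mean had a median of 0.522 over the 27 members, with quartiles of 0.479 and 0.565. It lay between 0.4 and 0.6 in 20 members, below 0.4 in 4 and above 0.6 in 3. Over the 14820 genes with at least 50 counts in each Ler library, the median ratio was 0.983, and 2.04% of these genes lay between 0.4 and 0.6. The ratio uses the Ler libraries of the rule and carries no test. The 14820 genes were not chosen for low counts in Ws as the members were, so their values are given for scale alone. Without Ler replicate 3 the median ratio of the members was 0.572, without Ler replicate 1 it was 0.487, and the 6 F1 libraries taken one at a time gave 0.471 to 0.539.

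**Figure D1:**
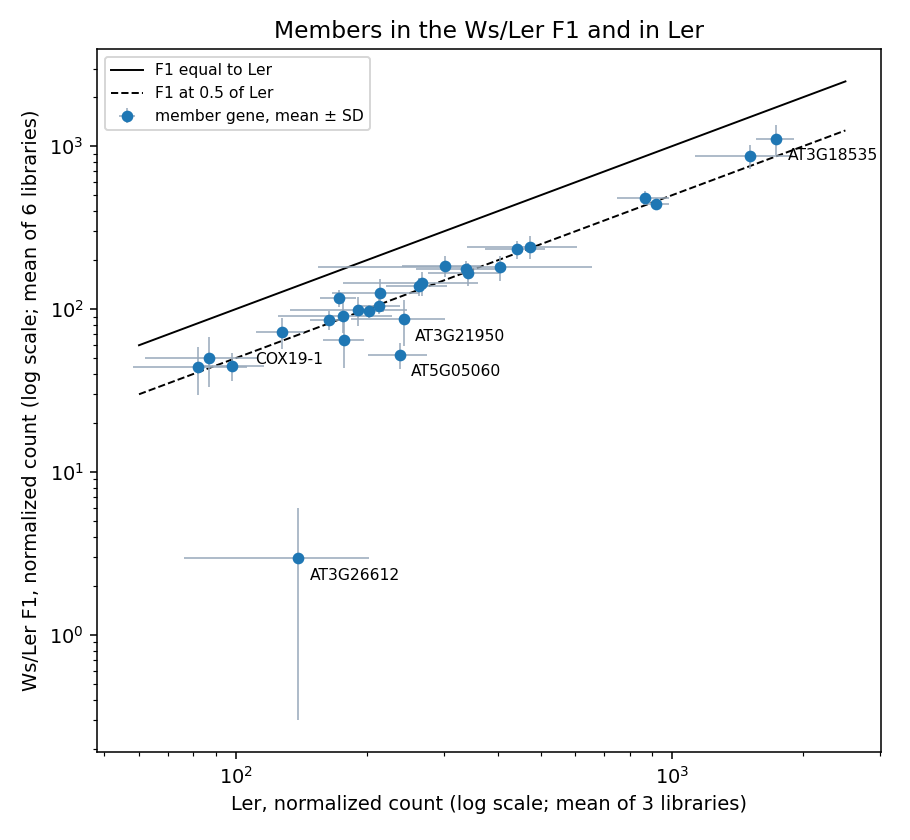
Mean normalized count of each of the 27 members in the Ws/Ler F1 (y axis, 6 libraries) against Ler (x axis, 3 libraries), both on log scales, with bars for the SD and lines for equal levels and for 0.5 of Ler. Most members follow the dashed line, AT3G26612 lies far below it at 2.95 against 139 normalized counts, and its lower bar would pass below 0 and cannot be drawn whole on a log axis.

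Single members show the same order of levels. PLC8 had 383, 435 and 435 counts in WsxLer and 371, 496 and 413 in LerxWs, against 927, 794 and 1220 in Ler and 2, 3 and 1 in Ws. The F1 libraries of PLC8 lay below every Ler library and above every Ws library. AT3G42052, a pseudogene, had 86, 99 and 90 counts in WsxLer and 89, 91 and 99 in LerxWs, against 189, 186 and 270 in Ler and 1, 0 and 0 in Ws. In normalized counts, all 6 F1 libraries lay below all 3 Ler libraries in 26 of the 27 members, which holds for 4.48% of the 14820 genes expressed in Ler. The exception was AT1G63350, where WsxLer replicate 2 reached 79.9 normalized counts against 59.9 in Ler replicate 2. The members were chosen for low counts in Ws and the 14820 genes were not, so nothing about the members is read from this share. In bulk leaves, fewer cells that express a gene and less RNA per cell cannot be told apart.

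The F1 was compared with the mid-parent value (MPV), made by adding the Ws and Ler counts of libraries with the same replicate number. The MPV holds the libraries that chose the members, so the counts below are a description and nothing about the members is read from them. By edgeR's quasi-likelihood test with Benjamini-Hochberg adjustment, 2 of the 27 members were lower in the F1 than the MPV, where 0.154% of all 18146 genes tested were lower. By edgeR and by DESeq2, 0 members were higher, where 0.127% of all genes were higher by edgeR, and edgeR gave 1, AT3G18535, at an unadjusted p at or under 0.05. At that threshold 4.87% of all genes were higher and 4.01% lower, with 2 members lower. The 2 members called lower were AT3G26612 and AT5G05060, and the call of AT5G05060 was lost without MPV replicate 2 or 3. The median log2 fold change of the members was 0.10, and that of all genes 0.01.

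AT3G26612, a non-coding RNA of unknown function, was nearly silent in the hybrid. It had 8, 4 and 3 counts in WsxLer and 0, 1 and 1 in LerxWs, against 92, 107 and 260 in Ler and 0, 1 and 1 in Ws. Every F1 library was far below every Ler library, and the F1 range overlapped that of Ws. The F1 to Ler ratio was 0.021, and the log2 fold change from the MPV was -4.45 (standard error, SE, 0.56).

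AT5G05060, annotated in the cystatin and monellin superfamily, was also low in the F1. It had 51, 39 and 46 counts in WsxLer and 46, 74 and 46 in LerxWs, against 200, 227 and 331 in Ler and 0, 0 and 1 in Ws. All F1 libraries lay between the Ws and the Ler libraries, with an F1 to Ler ratio of 0.220. The log2 fold change from the MPV was -1.13 (SE 0.20). The remaining members below 0.4 of Ler were COX19-1 at 0.363 and AT3G21950, a gene of the methyltransferase superfamily, at 0.358. The 3 members above 0.6 were AT5G51630 at 0.677, AT3G18535 at 0.643 and SADHU4-1 at 0.609.

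The direction of the cross was tested between F1 libraries, which the rule did not use. The fit that gave the spread also held the MPV, and a fit of the 6 F1 libraries alone called 0 members as well. By edgeR, 0 members were lower in WsxLer than in LerxWs and 0 were higher, where 0% and 0.0165% of all genes were called. DESeq2 called 0 as well. By edgeR 1 member, AT3G26612, was higher in WsxLer at an unadjusted p at or under 0.05, where 0.904% of all genes were higher and 1.21% lower. Its log2 fold change was 2.73 (SE 0.95, edgeR adjusted p = 1) on counts of at most 8. The median log2 fold change of the members between the crosses was -0.02 and that of all genes -0.01.

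In each Ws/Ler F7 line the members were sorted into states. A library was taken to hold a member at a normalized count of at least 0.25 of the Ler mean and to lack it at 5 counts or fewer, with values in between called intermediate. A line was present or absent where its 3 libraries were alike, and split where plants held and lacked the gene. Of 729 values of a member in a line library, 392 were present, 326 absent and 11 intermediate, and 231 of the absent values were 0 counts. Present values had a median of 0.907 of the Ler mean, with quartiles of 0.702 and 1.10.

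**Figure D2:**
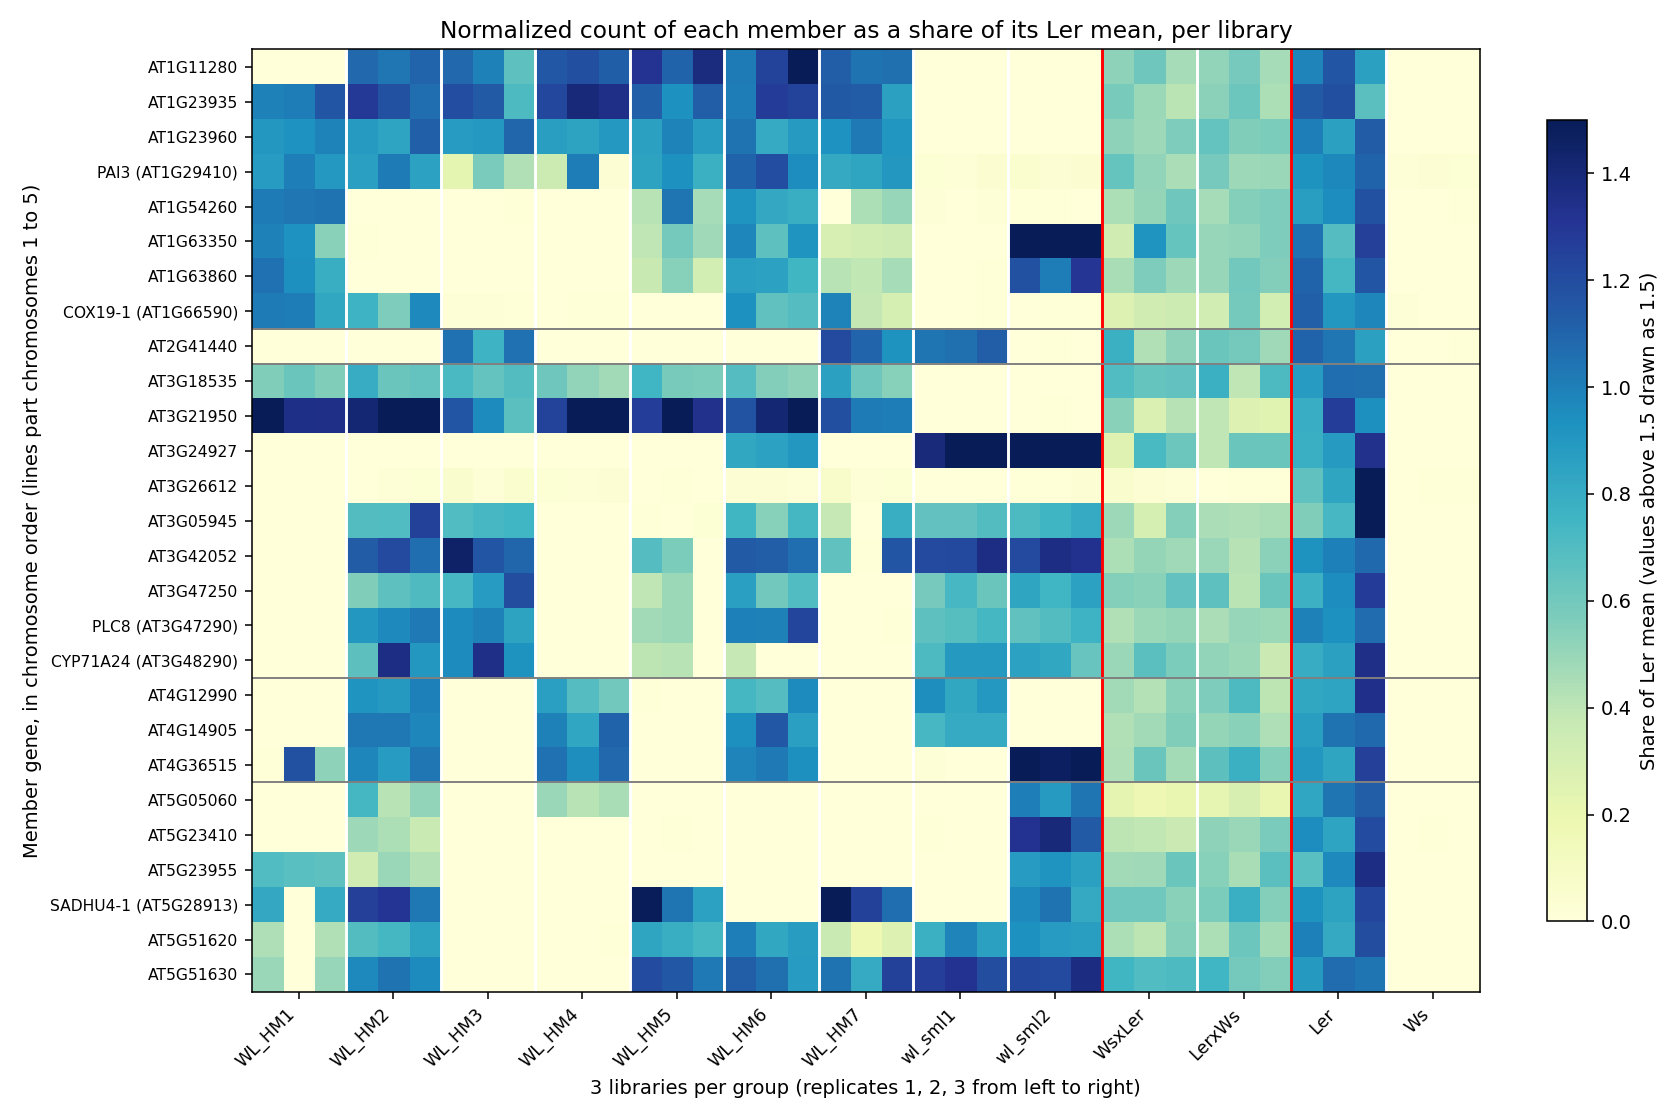
Normalized count of the 27 members (rows, in chromosome order) as a share of their Ler mean in the 3 libraries of each Ws/Ler F7 line, the F1 hybrids, Ler and Ws (columns). Lines show blocks near the Ler level or near 0, the F1 columns are mostly near 0.5, and AT3G26612 is near 0 in the lines and the F1.

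Over the 243 combinations of 27 members and 9 lines, 121 (49.8%) were present, 101 absent, 13 split and 8 intermediate. The Hybrid Mimics held 95 of 189 combinations (50.3%) and the small lines 26 of 54 (48.1%). Among the 43 mirror genes, which were counted in Ws and hardly at all in Ler, 46.5% of 387 combinations were present. Lines differed widely. WL_HM2 held 21 members and WL_HM6 20, whereas WL_HM4 held 9, WL_HM1 10 and WL_HM3 11. WL_HM5 and WL_HM7 held 12 each, wl_sml1 11 and wl_sml2 15. Members absent in all plants of a line numbered 6 in WL_HM2 and in WL_HM6, 9 in WL_HM7, 10 in WL_HM5, 11 in wl_sml2, 13 in WL_HM1, 14 in WL_HM3, 15 in wl_sml1 and 17 in WL_HM4. Mirror genes were present least often in WL_HM6 (5 of 43) and most often in WL_HM4 (30 of 43).

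**Figure D3:**
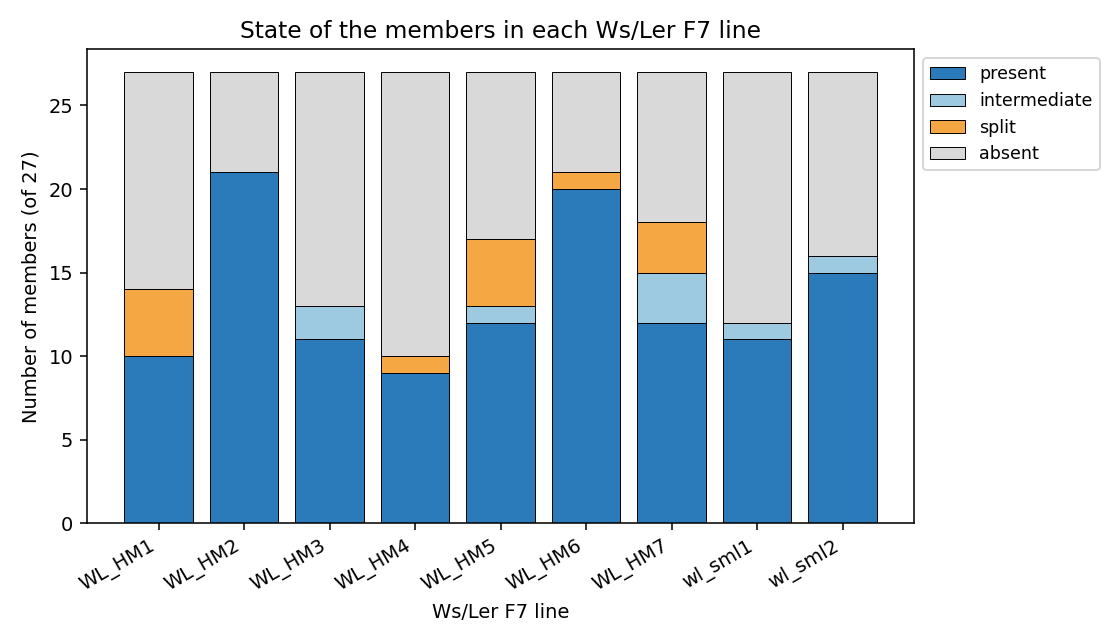
Number of the 27 members that were present, intermediate, split between plants or absent in each Ws/Ler F7 line. Present members range from 9 in WL_HM4 to 21 in WL_HM2, and split members occur in WL_HM1, WL_HM4, WL_HM5, WL_HM6 and WL_HM7.

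The lines were tested against the F1, and neither side of this contrast chose the members. The 3 MPV libraries, which hold the Ler and Ws libraries of the rule, shared in the estimate of the spread. By edgeR's quasi-likelihood test, 102 combinations were lower than the F1 and 56 higher at the adjusted threshold of 0.05. The states were set from the same line counts that edgeR tested, so the calls by state are a description and not a separate test. Of the 101 absent combinations, 96 were lower, and the other 5 were AT3G26612, which was already near 0 in the F1. Of the 121 present combinations, 56 were higher, 1 was lower and 64 were not called. The line mean of a present member had a median of 1.76 times the F1 mean, and 75 of 121 lay between 1.5 and 2.5 times. Fitting only the 2 groups compared, without the MPV and the other lines, gave 99 lower and 96 higher combinations. In WL_HM2 in the full fit, AT3G42052, which was split in other lines, had a log2 fold change of 1.22 (SE 0.57) and was not called. AT4G14905, split in no line, was called there at 1.02 (SE 0.14). A present combination that was not called therefore does not show that the member stayed at the F1 level. The F1 libraries serve in all 9 comparisons, so the lines' results share them.

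Line by line, the members called are given beside the share of all 18146 genes. Those genes were not chosen for low counts in Ws as the members were, so nothing about the members is read from the shares. In WL_HM1, 13 members were lower and 5 higher, where 17.0% of genes were lower and 12.6% higher. In WL_HM2, 5 were lower and 8 higher (all genes 17.9% and 14.0%). In WL_HM3, 14 were lower and 5 higher (9.54% and 10.2%). WL_HM4 had 16 lower and 6 higher members (23.5% and 19.7%), and WL_HM5 had 10 lower and 4 higher (15.7% and 11.8%). WL_HM6 had 6 lower and 10 higher (18.3% and 17.9%), and WL_HM7 11 lower and 5 higher (11.8% and 7.92%). In the small lines, 16 were lower and 5 higher in wl_sml1 (20.9% and 19.4%), and 11 lower and 8 higher in wl_sml2 (25.6% and 23.2%). States and calls rest on the same line counts, so the lines that held most members, WL_HM2 and WL_HM6, also had fewest lower ones. In these lines 5 and 6 of 27 were near the share of all genes.

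The median log2 fold change of the members against the F1 was 0.74 in WL_HM2, 0.63 in WL_HM6 and 0.55 in wl_sml2. It was -0.34 in WL_HM7 and -0.62 in WL_HM5. Where many members were at 0 counts in every library of a line, the median was taken again with these set to 3 counts per library. It was then -0.78 in WL_HM1 (fitted -1.05), -3.72 in WL_HM3 (fitted -4.58), -4.04 in WL_HM4 (fitted -8.26) and -4.14 in wl_sml1 (fitted -5.54). The median over all genes lay between -0.03 and 0.00 in the 9 comparisons.

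Members present in all 7 Hybrid Mimics and absent in both small lines numbered 4, and 0 showed the reverse. By the same limits, 0.0405% of the 14820 genes expressed in Ler were present in the Hybrid Mimics and absent in the small lines, and 0% the reverse. This share is 6 genes, and the 4 members are among them. The 14820 genes were not chosen for low counts in Ws as the members were, so nothing about the members is read from these shares. Of the 43 mirror genes, which were counted in Ws and hardly at all in Ler, 1 (AT2G27402) was present in all 7 Hybrid Mimics and absent in both small lines. The reverse was seen in 2, AT1G12220 and AT3G16750. By their counts, these 2 mirror genes were like Ler in the Hybrid Mimics, as the 4 members were. AT2G27402 was like Ws there. Which parent the copies in the lines came from was not tested. The 4 members were AT1G23935, annotated as an apoptosis inhibitory protein, AT1G23960, AT3G18535 and AT3G21950. They are not 4 separate cases. AT1G23935 and AT1G23960 have 1 annotated gene between them, and AT3G18535 and AT3G21950 on chromosome 3 have 464. Each of these pairs had the same state in all 27 line libraries. AT1G23960 had 696 to 969 normalized counts in the 21 Hybrid Mimic libraries and 0.0 to 2.7 in the 6 libraries of the small lines, against 419 to 557 in the F1, 746 to 985 in Ler and 0 in Ws. Hybrid Mimics and small lines did not overlap, and the Hybrid Mimics lay above every F1 library. In AT1G23935, AT1G23960 and AT3G21950 all 7 Hybrid Mimics were higher than the F1. In AT3G21950 the log2 fold change was 2.31 in WL_HM2 (SE 0.22, edgeR adjusted p = 1.96e-08) and 1.37 in WL_HM3 (SE 0.23, edgeR adjusted p = 0.00011). AT1G11280 was present in WL_HM2 to WL_HM7 and absent in WL_HM1 and both small lines. The lines were bred for rosette size from the same crosses, and with 2 small lines the difference in presence between Hybrid Mimics and small lines was not tested.

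AT3G18535 did not gain in the Hybrid Mimics. Its line means there were 923 to 1196 normalized counts, 0.532 to 0.690 of Ler, against an F1 mean of 1115 ± 230 (SD, n = 6). None of the 7 Hybrid Mimics was called against the F1 by edgeR in this gene, with log2 fold changes of -0.28 to 0.08 and standard errors of 0.16. LerxWs replicate 2 had 680 normalized counts, the lowest of the F1 libraries. AT3G18530, which overlaps AT3G18535 on the same strand, followed it, with 40.2 to 105.6 normalized counts in the Hybrid Mimics, 0.0 to 0.9 in the small lines, 29.1 to 125.5 in the F1, 40.4 to 82.7 in Ler and 0.0 in Ws. Reads of overlapping genes cannot be told apart where the strand setting is unknown. AT1G23950, on the opposite strand from AT1G23935, had 507 to 622 normalized counts in the Hybrid Mimics and 21.4 to 110.6 in the small lines, against 326 to 370 in the F1, 545 to 664 in Ler and 71.4 to 111 in Ws.

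**Figure D4:**
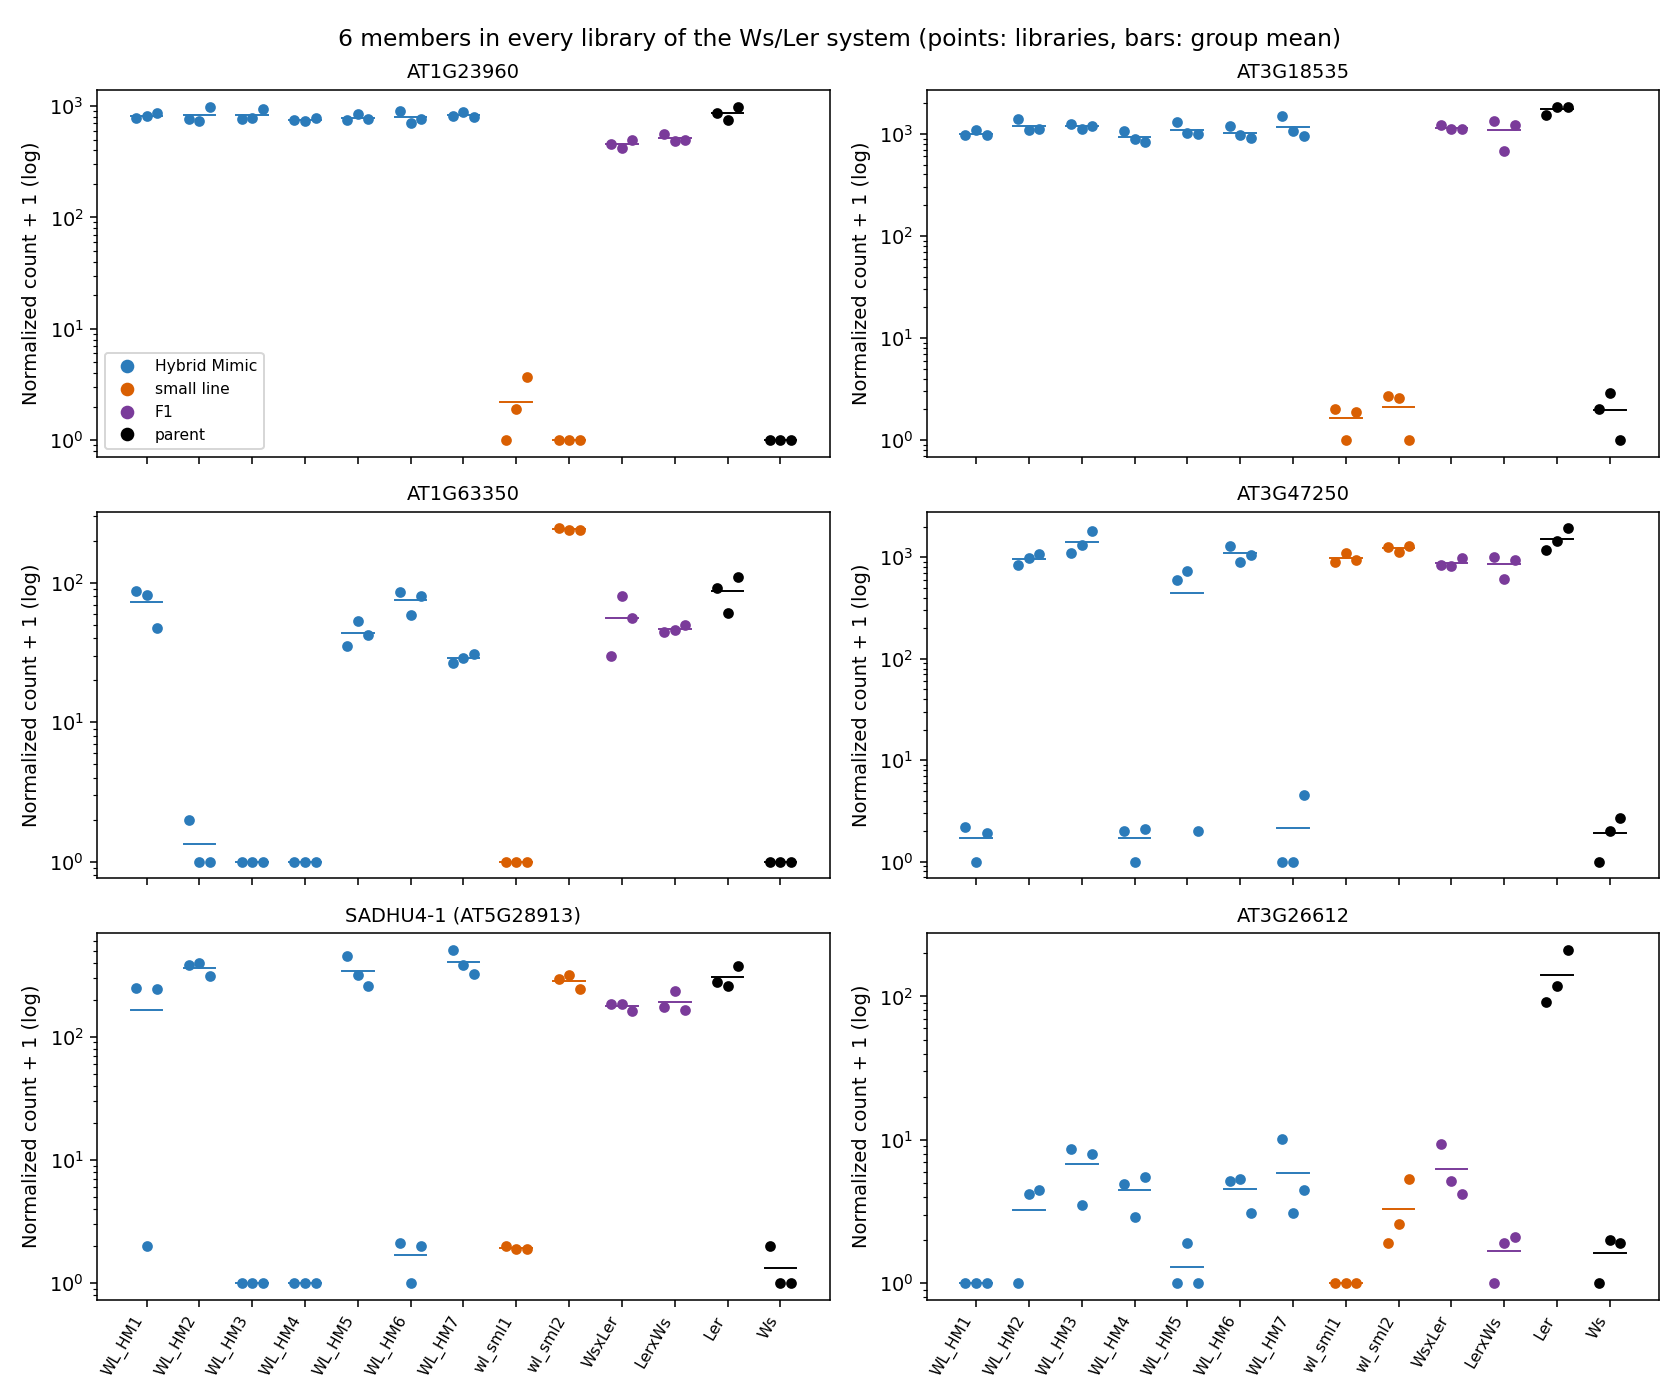
Normalized counts plus 1 (log scale) of 6 members in every library of the Ws/Ler system, with points for libraries and bars for group means, for lines, F1 hybrids and parents from left to right. AT1G23960 and AT3G18535 are high in all Hybrid Mimics and near 0 in the small lines, AT1G63350 reaches 239 to 246 in wl_sml2, single libraries of WL_HM5 and WL_HM1 lack AT3G47250 and SADHU4-1, and AT3G26612 stays near or below 10 outside Ler.

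The opposite tendency was seen in AT3G24927, a transcribed pseudogene. It had 114, 129 and 147 normalized counts in wl_sml1, 151, 156 and 147 in wl_sml2 and 67.7, 70.2 and 74.3 in WL_HM6, against 20.7 to 59.2 in the F1 and 64.1 to 109 in Ler. All 18 libraries of the other 6 Hybrid Mimics and the 3 Ws libraries were at 0. The small lines lay above every Ler library. Relative to the F1 the log2 fold change was 1.76 in wl_sml2 (SE 0.25, edgeR adjusted p = 1.8e-05) and 1.55 in wl_sml1 (SE 0.25, edgeR adjusted p = 9.7e-05). WL_HM6 was not called (log2 fold change 0.67, edgeR adjusted p = 0.053).

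The 2 disease resistance genes on chromosome 1, AT1G63350 and AT1G63860, with 61 annotated genes between them, had the same state in all 27 line libraries. Both were present in WL_HM1, WL_HM5, WL_HM6, WL_HM7 and wl_sml2. AT1G63350 had 246, 239 and 239 normalized counts in wl_sml2, against 29 to 79.9 in the F1 and 59.9 to 109 in Ler. All wl_sml2 libraries lay above every F1, Ler and Col library, with a log2 fold change from the F1 of 2.26 (SE 0.25, edgeR adjusted p = 1.4e-07). In WL_HM7 the same gene had 25.5, 28.0 and 30 normalized counts, 0.320 of Ler. This was the present combination that was lower than the F1 (log2 fold change -0.87, SE 0.29, edgeR adjusted p = 0.037). It was not called without any 1 library of WL_HM7 (adjusted p = 0.127, 0.105 and 0.0723 without replicates 1, 2 and 3), nor without WsxLer replicate 2 (0.0776), WsxLer replicate 3 (0.0606) or LerxWs replicate 3 (0.0501), and it was 0.0985 with only the 2 groups fitted. AT1G63860 had 140, 132 and 156 normalized counts in WL_HM7 and 124, 183 and 106 in WL_HM5, against 152 to 203 in the F1 and 248 to 392 in Ler.

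AT5G51630, the third disease resistance gene, and AT5G51620 follow each other in the annotation and agreed in 26 of 27 line libraries. AT5G51630 was present in 6 lines and absent in WL_HM3 and WL_HM4, and in WL_HM1 it was split, with 74 and 93 counts in replicates 1 and 3 and 0 in replicate 2. AT5G51620 was split in the same plant, with 129 and 157 counts in replicates 1 and 3 and 0 in replicate 2. SADHU4-1, elsewhere on chromosome 5, also had 1 count in WL_HM1 replicate 2, beside 214 and 261 in replicates 1 and 3. In WL_HM7, AT5G51620 had 123, 61.2 and 93.4 normalized counts, all below the F1 range of 137 to 210. AT5G51630 had 180, 139 and 216 there, all above the F1 range of 95.9 to 129.9. Neither gene was called in WL_HM7 against the F1 (edgeR adjusted p = 0.197 for AT5G51620 and 0.319 for AT5G51630).

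On chromosome 3, AT3G05945, AT3G42052, AT3G47250, PLC8 and CYP71A24 shared most of their states. All 5 were present in all plants of WL_HM2, WL_HM3, wl_sml1 and wl_sml2 and absent in WL_HM1 and WL_HM4. WL_HM5 was split. AT3G47250 had 524 and 783 counts in WL_HM5 replicates 1 and 2 and 1 count in replicate 3, and PLC8 had 379 and 477 counts and 1 count. AT3G42052 and CYP71A24 were likewise at 1 and 0 counts in WL_HM5 replicate 3, with 122 and 123 counts in AT3G42052 and 67 and 83 in CYP71A24 in the other plants. In the plants that held it, PLC8 was at 433 and 451 normalized counts, close to the F1 mean of 441 ± 28.6 (SD, n = 6) and below the Ler range of 864 to 988. AT3G05945, a long non-coding RNA, did not share this pattern, with 3, 1 and 10 counts in WL_HM5. In WL_HM7 it had 167, 0 and 277 counts and AT3G42052 had 146, 2 and 203, so that replicate 2 lacked both, while AT3G47250 and CYP71A24 were absent in all 3 plants. In WL_HM6, CYP71A24 had 68 counts in replicate 1 and 0 in replicates 2 and 3, whereas the other 4 genes were present in all plants. This was the split combination that was lower than the F1 (log2 fold change -2.09, SE 0.80, edgeR adjusted p = 0.044). The adjusted p was 0.092 with DESeq2, 0.159 with only the 2 groups fitted by edgeR, 0.181 without WL_HM6 replicate 2, 0.167 without WL_HM6 replicate 3, and 0.0503 to 0.0635 without any 1 of 8 libraries of the F1 and the small lines.

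PAI3 was the member most often in neither state. It was present in 5 Hybrid Mimics. In wl_sml1 it had 4, 4 and 8 counts and in wl_sml2 9, 6 and 8, against 68 to 100 in the F1, 146 to 223 in Ler and 3, 5 and 5 in Ws. The small lines were within a few counts of Ws, so the intermediate state rests on the limit of 5 counts. In WL_HM3 it had 34, 75 and 70 counts, and in WL_HM4 59, 170 and 5, so the plants of WL_HM4 spanned the whole range. Counts of PAI3 are uncertain where its reads also match other PAI genes, since reads that map to several places are not counted. How many reads this affects was not tested. Another split was seen in AT4G36515, with 2 counts in WL_HM1 replicate 1 and 266 and 120 in replicates 2 and 3. AT1G54260, a winged-helix gene, had 1 count in WL_HM7 replicate 1 and 113 and 115 in replicates 2 and 3. In WL_HM5 it was present in all 3 plants at 108, 274 and 121 normalized counts, against a Ler range of 230 to 311 and an F1 range of 117 to 161.

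The remaining members were in 1 state in nearly every line. AT2G41440, a MADS-box gene and the sole member on chromosome 2, was present in WL_HM3, WL_HM7 and wl_sml1 and absent in the other 6 lines. AT4G12990 and AT4G14905, a kelch repeat gene, were both present in WL_HM2, WL_HM4, WL_HM6 and wl_sml1 and absent in the other 5, in every plant. COX19-1 was present in WL_HM1, WL_HM2, WL_HM6 and WL_HM7, and its 3 plants in WL_HM7 had 176, 68.5 and 54.2 normalized counts. AT5G23410, a non-coding RNA, was present in WL_HM2 and wl_sml2, and the pseudogene AT5G23955 in these lines and WL_HM1. In WL_HM2 AT5G23410 had 47.6, 43.3 and 35.2 normalized counts and in wl_sml2 130, 137 and 112, against 34.6 to 56.7 in the F1 and 82.7 to 118 in Ler. WL_HM2 thus overlapped the F1 and wl_sml2 overlapped Ler. AT5G05060, low in the F1, was present in WL_HM2, WL_HM4 and wl_sml2. It had 175, 98.6 and 122 normalized counts in WL_HM2, 118, 98.1 and 107 in WL_HM4 and 239, 210 and 247 in wl_sml2, against 40.5 to 69.1 in the F1 and 197 to 268 in Ler. All 3 lines lay above every F1 library, and wl_sml2 had a log2 fold change from the F1 of 2.14 (SE 0.20, edgeR adjusted p = 5.3e-08).

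AT3G26612 was present in none of the 27 line libraries. Its highest count there was 10, in WL_HM7 replicate 1, and all plants of WL_HM1 and wl_sml1 were at 0. No other member was present in none of the lines. The other 26 were each present in 2 to 7 lines.

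Members that lie close together had the same state more often than members far apart. The 7 pairs with at most 200 annotated genes between them agreed in 24 to 27 of the 27 line libraries, with a median of 26. These close pairs are not all separate, since AT3G47250, PLC8 and CYP71A24 form pairs among themselves. The 75 more distant pairs of the same chromosome agreed in 3 to 27 with a median of 15, and the 269 pairs on different chromosomes in 3 to 27 with a median of 13. AT1G23935 on chromosome 1 and AT3G18535 on chromosome 3, for example, agreed in all 27. These agreements are a description, since the 3 libraries of a line are related plants. The nearest mirror gene lay within 200 annotated genes of 8 members. In 188 of the 216 library values of these pairs (87.0%) 1 of the 2 genes was present and the other absent, with the member present in 106 and the mirror gene in 82. Both were present in 12 and both absent in 7. The 8 pairs are not all separate. AT3G47250 and PLC8, which agreed in 26 of 27 libraries, have the same nearest mirror gene, AT3G46385. AT2G41440 and the mirror gene AT2G42485 were never present or absent together, nor were AT5G05060 and AT5G03495. In AT3G42052, whose nearest mirror gene is 413 annotated genes away, 3 of 27 libraries held both.

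The same genes were followed in the Col/Ler cross, where both parents express them. In the 6 F1 libraries and the 18 libraries of CL_HM1 to CL_HM4, cl_sml1 and cl_sml2, 0 of 648 values were at 5 counts or fewer, and the lowest was 15. The Col/Ler F1 had a median of 0.972 of the mean of Col and Ler over the 27 members. By edgeR 1 member was lower than the MPV and 0 were higher, where 0.340% and 0.0670% of all 17919 genes were called. DESeq2 also called 1 member, and at an unadjusted p at or under 0.05 edgeR gave 4 lower and 1 higher, where 4.69% and 2.45% of all genes passed. This MPV also holds the libraries that chose the members, and it shares the Ler libraries with the Ws/Ler MPV, so nothing about the members is read from these counts.

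The member lower in the Col/Ler F1 was AT3G26612. Its calls in the 2 crosses are not independent, since both MPVs hold the same Ler libraries. It had 82, 79 and 102 counts in ColxLer and 82, 78 and 47 in LerxCol, against 147, 138 and 131 in Col and 92, 107 and 260 in Ler. The log2 fold change from the MPV was -0.92 (SE 0.20). In normalized counts the F1 was at 51.9 to 102 and overlapped Ler at 90.7 to 211. The call was lost when only the F1 and the MPV were fitted, and without ColxLer replicate 1 or 2, LerxCol replicate 2 or 3 or any 1 MPV replicate. The Ws/Ler F1 values of this gene, at most 8 counts, stand beside these without a test of the difference.

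The lines CL_HM5 and CL_HM6 were left out of the study's own analysis for their plant size on the day of sampling. In these 6 libraries 9 of 162 values were at 5 counts or fewer, and all 9 belonged to AT3G24927 and AT3G26612. AT3G24927 had 0 counts in the 3 libraries of CL_HM6 and 32.6, 1.0 and 41.8 normalized counts in CL_HM5, against 131 to 194 in the Col/Ler F1, 178 to 231 in Col and 64.1 to 109 in Ler. AT3G26612 had 8.4, 3.8 and 1.8 normalized counts in CL_HM5 and 1.1, 5.4 and 1.1 in CL_HM6, against 142 to 152 in Col and 90.7 to 211 in Ler. CL_HM3 had 81.7, 50 and 27 in AT3G26612. CL_HM5 and CL_HM6 lay below every Col and every Ler library in AT3G24927 and AT3G26612.

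AT1G23935 and AT3G21950, both absent in the Ws/Ler small lines, were also low in the Col/Ler small lines. AT1G23935 had 28.6, 23.5 and 15.2 normalized counts in cl_sml1 and 25.0, 28.1 and 20.3 in cl_sml2, against 261 to 363 in the Col/Ler F1, 51.8 to 87.5 in Col and 318 to 561 in Ler. AT3G21950 had 13.8, 15.3 and 14.3 in cl_sml1 and 17.6, 24.2 and 23.0 in cl_sml2, against 157 to 290 in the F1, 82.9 to 109 in Col and 192 to 307 in Ler. In both genes every small line library lay below every Col, Ler and F1 library. The Hybrid Mimics CL_HM1 to CL_HM4 had 256 to 568 in AT1G23935 and 181 to 561 in AT3G21950. AT1G23960 and AT3G18535 shared the Ws/Ler presence pattern of these genes. AT1G23960 was not low, with 814 to 1002 in cl_sml1 and 856 to 923 in cl_sml2, against 802 to 830 in Col and 746 to 985 in Ler. AT3G18535 had 378 to 424 in cl_sml1 and 346 to 441 in cl_sml2, against 503.5 to 607 in Col. In AT3G18535 the Hybrid Mimic library CL_HM2 replicate 2 was as low, at 346. These values are a description, since the genes were picked after their values were seen.

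**Figure D5:**
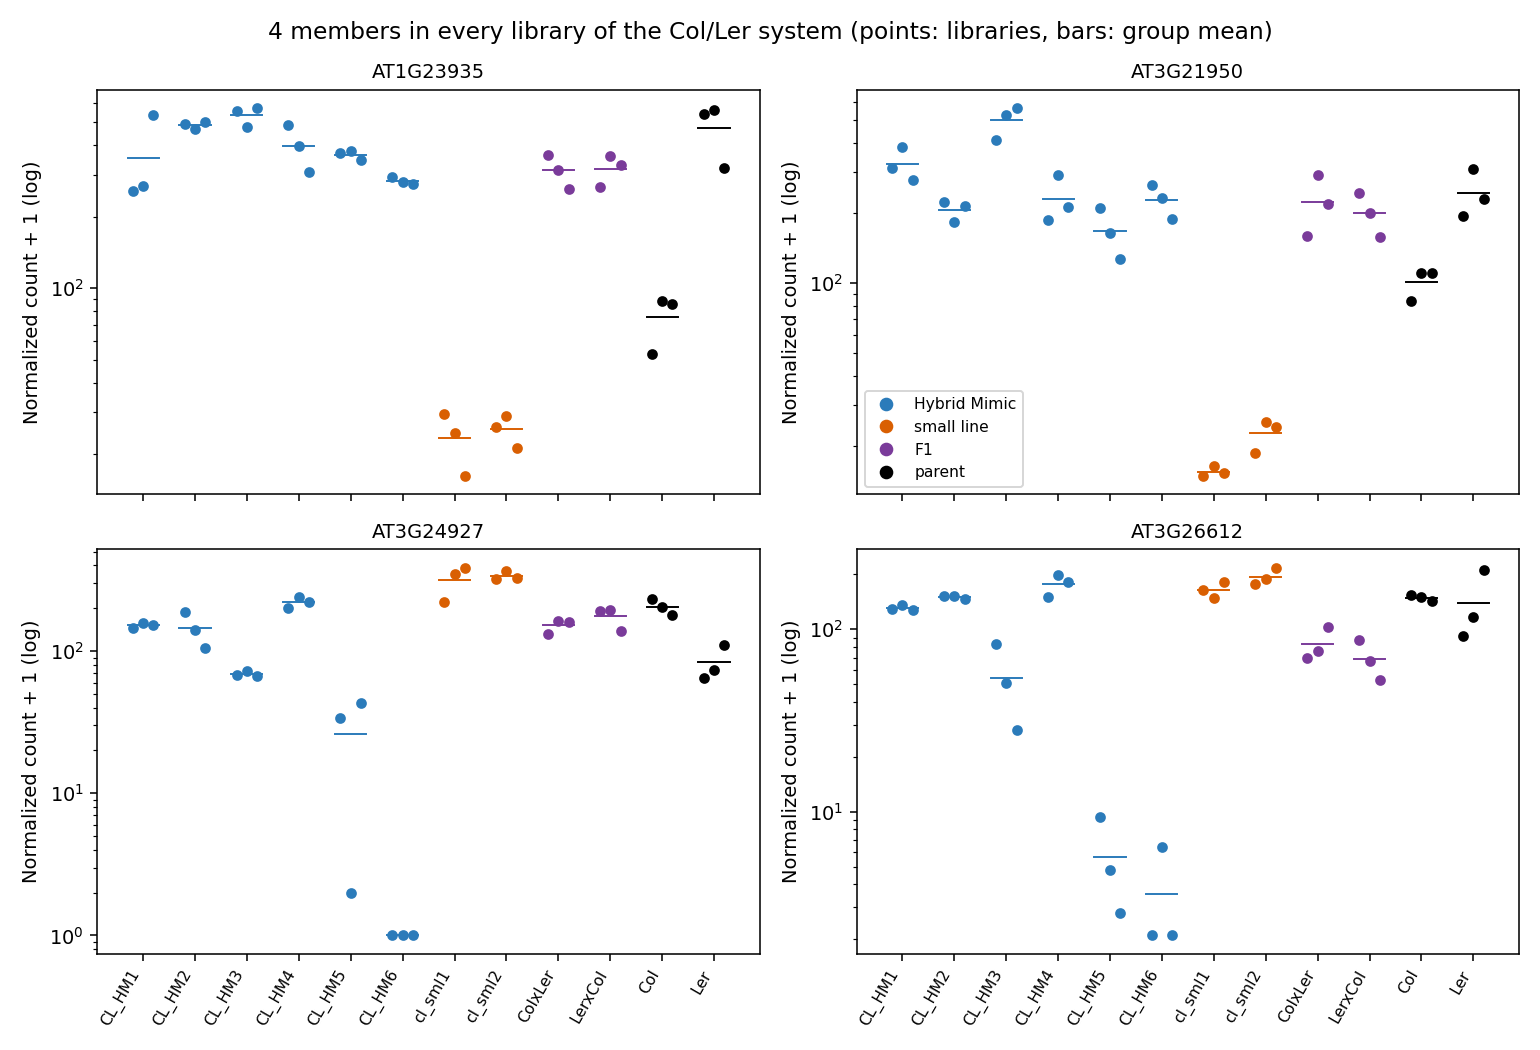
Normalized counts plus 1 (log scale) of 4 members in every library of the Col/Ler system, with points for libraries and bars for group means, for lines, F1 hybrids and parents from left to right. The small lines lie below both parents in AT1G23935 and AT3G21950, and CL_HM5 and CL_HM6 lie below both parents in AT3G24927 and AT3G26612.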

How the data were processed

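Rosette leaf RNA was sequenced (72 libraries). Read alignment used STAR 2.5.3a and the TAIR10 genome, which is of Col, with Araport11 genes, per the submitters' processing notes, and the authors deposited the resulting counts per gene as whole numbers with no scaling. The strand setting is not given in the sources used here, so counts of overlapping genes are uncertain. An absent gene, a silent gene and reads that differ too much from Col to align cannot be told apart. The members, lists and limits were chosen with earlier results of these data known. The genes named follow a rule on level, function, calls, splits, pattern over the lines, neighbours and distance to the limits, and every member is accounted for. Identifiers were looked up in the TAIR10.1 annotation for names and gene order (37051 of 37336 genes, 27 of 27 members), and no coordinates are given, since that build differs.

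Counts were tested in R 4.3.3 with edgeR 4.0.16 (TMM, estimateDisp, glmQLFit, glmQLFTest) on genes that reached 50 counts in 1 or more of the fitted libraries. All 27 members passed this filter, and p-values were adjusted over all genes tested and called at or under 0.05, two-sided. The Ws/Ler fit held 36 libraries (27 of F7 lines, 6 F1 and 3 MPV). The Col/Ler fit held 27, without CL_HM5 and CL_HM6. For the MPV, parents of the same replicate number were scaled to their mean library size, added and rounded. Normalized counts were scaled by TMM over all 72 libraries to the mean library size. DESeq2 1.42.0 was an alternative, as were other scaling, filters, rule limits, fits and left-out libraries. One alternative, the Ler level without Ler replicate 3, was chosen after seeing the data. The fit was tested on simulated data. Replicates are those of the labels, and p-values measure the spread between them.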

Additional observations from a re-analysis of the deposited data

Results flagged for a closer look

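Among the 6 Ws/Ler F1 libraries, 1 library lay far from the others in 3 of the 27 members, and in each case it was LerxWs replicate 2. COX19-1 (AT1G66590) was highest there with 105.5 normalized counts, and SADHU4-1 (AT5G28913) was highest with 236.1. AT3G18535 was lowest there with 680.4 normalized counts. The rule marks about 1 in 20 groups by chance, and its part in these marks was not tested. Without LerxWs replicate 2 the median F1 to Ler ratio of the members was 0.514.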

How the results depend on the processing

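Over 154 values under alternative settings, 136 kept their side of the threshold, or stayed within 1.5 times the count or within the spread of the F1 libraries, and 0 reversed. With a minimum of 100 counts in Col and Ler (20 members), 1 member was called against the MPV in the Ws/Ler F1 and 0 in the Col/Ler F1. At an unadjusted p at or under 0.05, 1 member was called between the reciprocal crosses and 5 in the Col/Ler F1. Fitting only the groups compared gave 0 in the Col/Ler F1 and 96 combinations of member and line higher than the F1. With 1 library left out, members called ranged from 1 to 2 in the Ws/Ler F1 and from 0 to 1 in the Col/Ler F1, and stayed at 0 between the reciprocal crosses. Combinations lower than the F1 ranged from 100 to 103, higher ones from 52 to 70, and the median F1 to Ler ratio from 0.487 to 0.572. Present combinations ranged from 124 to 127 when the same replicate number was left out of all 9 lines at once, and were 121 with the Ler level without Ler replicate 3. With a replicate left out, fewer libraries of a line had to be alike for a member to be called present. With limits of 50 and 1 counts or of 100 and 5 counts in the rule, present combinations were 87 and 93. Each of these rules kept 20 members, fewer than the main rule, so 87 and 93 do not compare directly with 121. Present combinations were 123 and 110 with limits of 0.1 and 0.5 of the Ler mean. Beyond these changes in what was counted, the cause of the differences was not tested. At this depth, 5 counts or fewer do not show that a gene is absent.

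Replicate numbers did not pair the samples. Deviations of same-numbered libraries correlated at -0.367 to 0.594, and all 3 correlations were over 0.1 in 1 of 21 group pairs. With the replicate block, 2 members were called in the Ws/Ler F1, 0 between the reciprocal crosses and 0 in the Col/Ler F1, and 102 and 56 combinations were lower and higher than the F1.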
